A study of Mus musculus with 4 samples.

Results

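Cytosolic ribosomal protein genes encode the proteins of the ribosome that translates nuclear messages. They were taken as the protein-coding genes of GENCODE M21 whose symbol is Rpl or Rps followed by a digit, together with Rplp0, Rplp1, Rplp2 and Rpsa. Kinases of the Rps6k family and genes with a pseudogene ending were left out. This gave 85 genes of 21853 protein-coding genes, 52 for the large subunit and 33 for the small subunit. Of the 85, 77 are the usual subunit genes and 8 are paralogs. The mark, H3K4me3, is trimethylation of lysine 4 of histone H3, measured here by chromatin immunoprecipitation and sequencing. The tissue, labelled layer of hippocampus, came from male B6CASTF1/J mice, an F1 hybrid, aged 2 months. There were 2 biological replicates, pool D and pool C, each made from 7 tissue samples and sequenced as 2 technical replicates. No treatment or other genotype was compared. Each pool came with 1 peak list. A further list was called on both pools together, and a list the authors named replicated was made from both pools. All values are from the replicated list unless a pool is named.

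As background, each ribosome needs 1 copy of nearly every ribosomal protein, so these genes are transcribed strongly in all growing and most resting cells. Their messages belong to the 5' TOP class, which start with a C and a run of pyrimidines and are held back from translation when mTOR signalling is low. H3K4me3 is laid down at promoters around the transcription start, usually over an unmethylated CpG island. In neurons, ribosomal protein messages also travel to dendrites and axons.

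Promoters of marked genes and of unmarked paralogs are shown first to set them side by side, as 100 bases from 80 before to 20 after the RefSeq start, read on the gene's strand in GRCm38.p6. Capitals mark the longest unbroken run of C and T near the start. 4 genes with a peak are given, the stalk proteins Rplp0 and Rplp2, the small-subunit protein gene Rpsa and the paralog Rpl22l1. They are followed by 3 paralogs that had no peak in any list, Rpl3l, Rpl10l and Rpl39l. Rplp0 lies at chr5:115559387-115559486 on the plus strand, Rplp2 at chr7:141447571-141447670 on the plus strand, Rpsa at chr9:120127686-120127785 on the plus strand and Rpl22l1 at chr3:28805428-28805527 on the plus strand. Rpl3l lies at chr17:24727746-24727845 on the plus strand, Rpl10l at chr12:66284382-66284481 on the minus strand and Rpl39l at chr16:10170148-10170247 on the plus strand.
Rplp0: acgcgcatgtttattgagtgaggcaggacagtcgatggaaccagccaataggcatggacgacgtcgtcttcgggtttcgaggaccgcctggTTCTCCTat
Rplp2: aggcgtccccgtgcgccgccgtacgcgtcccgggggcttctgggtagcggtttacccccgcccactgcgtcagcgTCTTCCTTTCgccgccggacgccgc
Rpsa: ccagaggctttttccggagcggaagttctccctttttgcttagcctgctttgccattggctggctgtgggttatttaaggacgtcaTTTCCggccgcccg
Rpl22l1: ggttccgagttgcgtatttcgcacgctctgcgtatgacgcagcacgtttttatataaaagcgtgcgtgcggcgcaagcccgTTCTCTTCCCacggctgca
Rpl3l: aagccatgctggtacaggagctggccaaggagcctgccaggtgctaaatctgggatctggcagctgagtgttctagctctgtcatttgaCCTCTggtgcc
Rpl10l: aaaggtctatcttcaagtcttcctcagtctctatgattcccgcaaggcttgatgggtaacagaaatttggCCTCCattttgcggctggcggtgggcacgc
Rpl39l: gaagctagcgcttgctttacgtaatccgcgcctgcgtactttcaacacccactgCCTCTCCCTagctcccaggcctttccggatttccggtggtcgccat
The run was 7 bases in Rplp0, 10 in Rplp2, 5 in Rpsa and 10 in Rpl22l1, against 5 in Rpl3l, 5 in Rpl10l and 9 in Rpl39l. CpG dinucleotides in these 100 bases numbered 9 in Rplp0, 17 in Rplp2, 6 in Rpsa and 13 in Rpl22l1. The unmarked paralogs held 0 in Rpl3l, 4 in Rpl10l and 8 in Rpl39l, so that the Rpl39l count lay within the range of the 4 marked genes shown. The marked parents Rpl10 and Rpl39, not printed here, were close to their unmarked paralogs. Rpl10 held 5 CpG and a run of 4 bases, and Rpl39 held 7 CpG and a run of 9.

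The last pair shows a marked gene beside an unmarked copy of its message. Rps27 encodes a small-subunit protein, and Rps27rt is named as its retrogene, a copy made from a processed message. Rps27 lies at chr3:90213629-90213728 on the minus strand and Rps27rt at chr9:114982720-114982819 on the minus strand. Capitals mark the bases that both share in 1 unbroken run.
Rps27: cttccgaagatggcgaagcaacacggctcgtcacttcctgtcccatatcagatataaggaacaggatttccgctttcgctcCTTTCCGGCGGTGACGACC
Rps27rt: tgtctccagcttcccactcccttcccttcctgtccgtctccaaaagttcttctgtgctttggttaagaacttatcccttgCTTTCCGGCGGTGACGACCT
The shared run was 38 bases long, of which 19 are shown for Rps27 and 20 for Rps27rt. It began at base 2 of the Rps27 message and at base 1 of Rps27rt, counted from the RefSeq start. For Rpl10l, Rpl22l1, Rpl36al, Rpl39l and Rps27l, the other paralogs for which both windows were at hand, the longest run shared with the parent was 8 bases. Rps27 carried a domain of 2864 bp. The peak nearest to Rps27rt was 2938 bp from its start. How the authors treated reads that fit several copies was not stated in the labels, so the lack of a peak at this copy is uncertain.

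Nearly the whole list was marked in this tissue. A promoter peak, meaning 1 bp or more of overlap with the 1 kb on either side of a coding start site, was present at 81 of 85 genes (95.3%). The same count held in pool D, in pool C and in the list called on both pools together. Over all protein-coding genes the share was 64.8% in the replicated list, 63.7% in pool D and 66.3% in pool C. All 77 usual subunit genes were marked, as were all 78 genes for mitochondrial ribosomal proteins, which serve the separate ribosome of that organelle. Since the tissue is a mixture of cell types, a peak in fewer cells and a weaker mark per cell cannot be told apart. No test across samples was possible, because each pool gave 1 list. The genes of the list are not replicates of each other.

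The 4 unmarked genes were all paralogs. Rpl3l is the form of Rpl3 known from heart and skeletal muscle, and Rpl10l and Rpl39l are testis forms of the X-linked Rpl10 and Rpl39. From Rpl10l the nearest peak was 186230 bp away in the replicated list, 186255 bp for pool D and 185980 bp for pool C. For Rpl39l these distances were 22366, 22371 and 22366 bp. Around Rpl3l they were 3260, 3294 and 3253 bp, and around Rps27rt 2938, 3151 and 2597 bp. The last 2 genes therefore lie nearest to the 1 kb edge from outside, and neither gained a peak in the window in either pool. Widening the window to 2.5 kb left the count of marked genes at 81.

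The other 4 paralogs carried a domain in both pools, 3 of them below and Rpl36al above the middle range of the list. A domain here is a promoter peak joined with peaks no more than 1 kb away. Rpl7l1, which works in ribosome assembly, had 1954 bp, or 1913 and 2077 bp in pools D and C, beside 4682 bp at Rpl7. Rpl22l1 had 1985 bp, with 1913 and 2295 bp in pools D and C, against 2304 bp at Rpl22. Rps27l, a gene known to respond to p53, had 1983 bp, with 1755 and 2013 bp in the pools. Rpl36al measured 2833 bp, with 2365 and 3043 bp in the pools, and the X-linked Rpl36a 1966 bp. Rpl10 and Rpl39, whose testis forms were unmarked, had domains of 2799 and 2627 bp. Without joining of peaks, the domain of Rpl10 shortened to 1683 bp.

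The domains were close to the typical coding gene in breadth, with a smaller spread. Median breadth was 2365 bp for the 81 marked genes, with quartiles of 2133 and 2774 bp, and 2234 bp for the 14169 marked coding genes, with quartiles of 1632 and 3134 bp. In pool D the medians were 2189 and 2035 bp, and in pool C 2583 and 2403 bp. Of the 81 domains, 77 (95.1%) were between 1000 and 4000 bp, against 78.6% of all marked coding genes. The share was 93.6% for mitochondrial ribosomal protein genes and 94.3% for ribosome assembly genes, so it is not particular to this list. Large-subunit genes had a median of 2339 bp and small-subunit genes 2455.5 bp, with overlapping quartiles. In pool D these medians were 2189 and 2184.5 bp, and in pool C 2601 and 2548.5 bp.

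**Figure D1:**
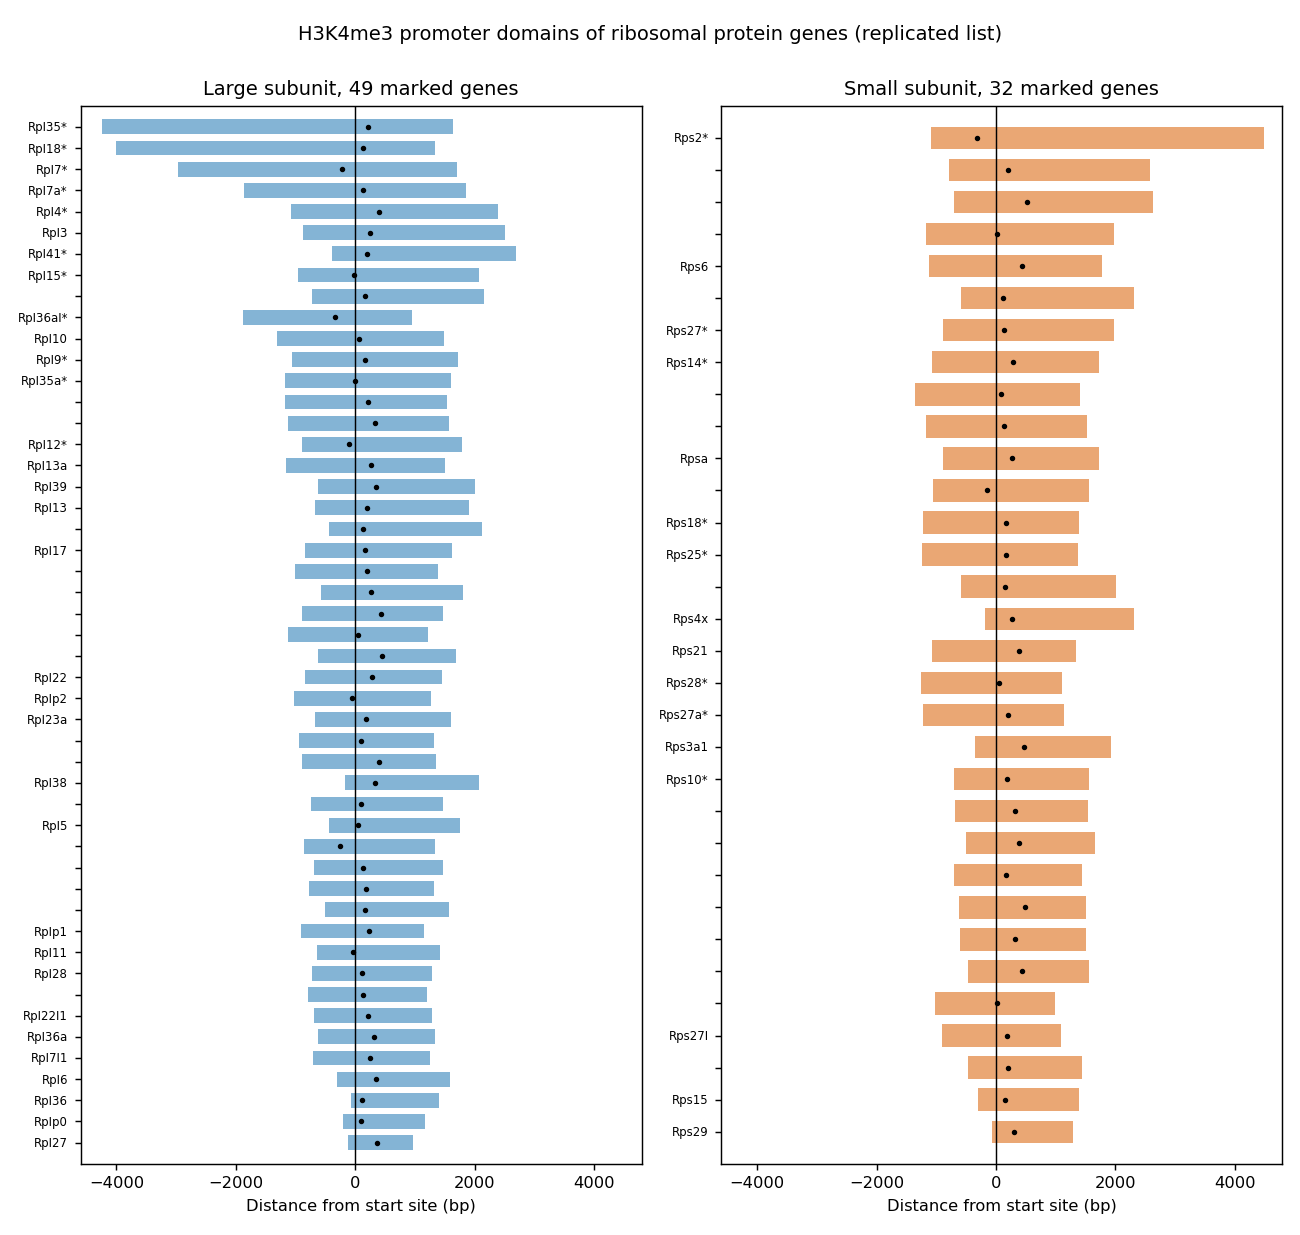
Each bar is the H3K4me3 promoter domain of 1 marked gene, placed by distance in bp from its start site (line at 0, transcription to the right), with the summit of its strongest peak as a dot; genes described in the text are labelled, and an asterisk marks a labelled domain that holds the start of another coding gene. Most bars run from under 1 kb before to 1 or 2 kb past the start, and Rpl35, Rpl18 and Rps2 exceed 5 kb.

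The 5 broadest domains belonged to Rpl35, Rps2, Rpl18, Rpl7 and Rpl7a. Rpl35, which sits near the exit of the peptide tunnel, had 5885 bp, or 5750 and 6114 bp in pools D and C (mean 5932 ± 257 bp, SD, n = 2). Rpl18 had 5334 bp, with 5138 and 5595 bp (mean 5366.5 ± 323 bp, SD, n = 2). Both were broad in both pools. Rps2, a small-subunit protein at the mRNA entry, had 5584 bp, but its pool D domain spanned 2491 bp and its pool C domain 5616 bp (mean 4053.5 ± 2210 bp, SD, n = 2). Its breadth was 2626 bp when peaks under a −log10 q of 5 were left out and 2105 bp without joining. Rpl7 measured 4682 bp, with 4364 and 4809 bp, and Rpl7a 3724 bp, with 3293 and 3804 bp. Joining decided Rpl35 too, since its promoter peak alone spanned 2146 bp. All 5 of these domains hold the start of another coding gene.

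At the narrow end were Rpl27, Rps29, Rplp0, Rpl36 and Rps15. The Rpl27 domain was 1095 bp, or 993 and 1661 bp in pools D and C, a gain of over 1.5 times in the latter list. Rps29 had 1354 bp, with 1251 and 1516 bp, and Rplp0 1377 bp, with 1331 and 1521 bp. Rpl36 spanned 1465 bp, with 1394 and 1513 bp, and Rps15 1688 bp, with 1536 and 2017 bp. These domains reached 61 bp before the start site at Rpl36, 63 bp at Rps29, 123 bp at Rpl27, 205 bp at Rplp0 and 303 bp at Rps15. In pool C the reach before the start was 73, 165, 606, 213 and 533 bp at these genes, in the same order. A gap limit of 3 kb in place of 1 kb linked Rpl36 and Rps15 to neighbouring peaks and gave 6319 and 10103 bp.

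The stalk proteins, which bring elongation factors to the ribosome, differed in breadth. Rplp0, their scaffold, was at 1377 bp, below Rplp1 at 2064 bp and Rplp2 at 2285 bp. Pool D gave 1331, 2020 and 2106 bp for Rplp0, Rplp1 and Rplp2, and pool C 1521, 2140 and 2417 bp. Rplp0 was therefore the narrowest of the 3 in both pools. Rpsa, also known as the laminin receptor, had 2618 bp, or 1889 and 2732 bp in pools D and C. With gaps of up to 3 kb joined, Rplp2 reached 5543 bp.

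Other gene lists of translation had other breadths. Mitochondrial ribosomal protein genes had a median of 1857 bp (quartiles 1572.5 and 2213.25 bp), below the cytosolic genes in the replicated list, in pool D (1705.5 against 2189 bp) and in pool C (1915 against 2583 bp). Elongation factors and other TOP messages, all 18 of them marked, had a median of 3245 bp. For the 35 ribosome assembly genes, all marked, it was 2196 bp, and for the 13 regulators of ribosome production 2126 bp. These regulators include Rps6, at 2902 bp, which is itself one of the cytosolic genes. Fau, which encodes a ribosomal protein fused to a ubiquitin-like protein under another kind of symbol, measured 2226 bp. Rps27a, the fusion within the list, measured 2354 bp.

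**Figure D2:**
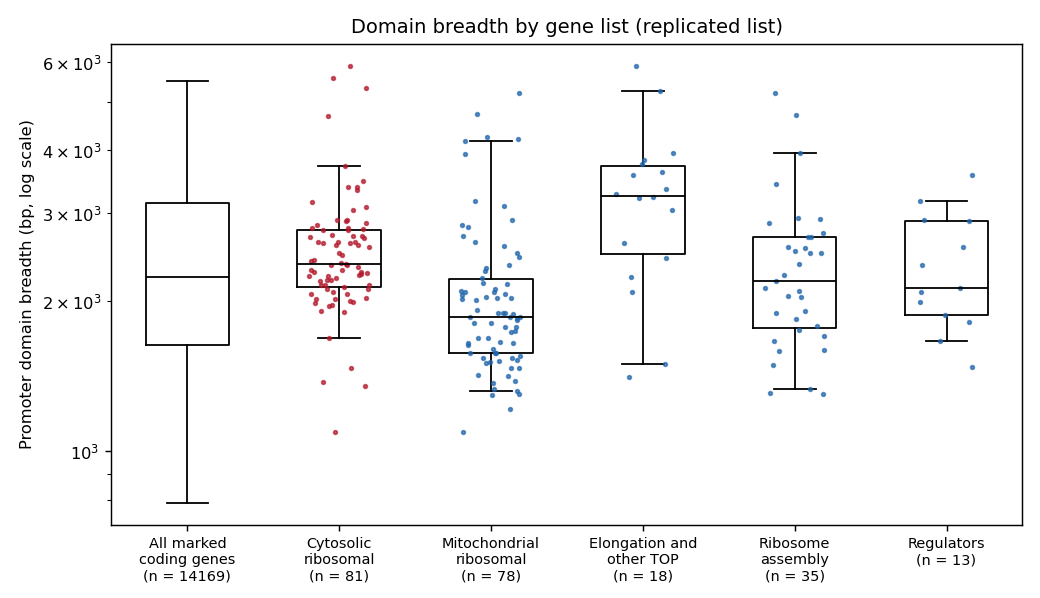
Breadth of promoter domains in bp on a log axis by gene list; boxes give median and quartiles, whiskers the 5th and 95th percentiles, and points single genes for the short lists. The box of the cytosolic genes (median 2365 bp) is narrower than that of all marked coding genes (median 2234 bp) and lies above that of the mitochondrial genes (median 1857 bp).

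By the height of the mark the list was above the middle and wide. The authors' signal value of the strongest promoter peak was ranked among all marked coding genes, giving a percentile. The median of the list was 64.8, above the middle of the scale, with quartiles of 47.4 and 86.8. In pool D it was 65.6 and in pool C 64.7. Mitochondrial ribosomal protein genes had a median of 65.1, with 65.4 in the pool D list and 70.4 in the pool C list. Rpl23a, at 99.9 in the replicated list, was also at 99.9 in pool D and 99.2 in pool C. The lowest was Rpl36a at 17.9, or 18.0 and 14.0 in the pools, followed by Rps28 at 21.2. The 4 genes on the X chromosome were all below the list median, with values of 56.9 (Rpl10), 34.1 (Rps4x), 24.2 (Rpl39) and 17.9 (Rpl36a). They were singled out after their values were seen, and no test was made. The mice were male, so X-linked genes differ in copy number from the autosomal genes they were ranked with. Any part of copy number in these ranks was not tested.

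Domains reached further into the gene than before it. The median reach was 840 bp before and 1531 bp past the start site, against 754 and 1340 bp over all marked coding genes. In pool D the medians were 740.5 and 1359 bp, over the 78 genes whose domain held a start site of their own. In pool C they were 821 and 1633 bp, over 81 genes. The longer side lay past the start at 73 of 81 genes (90.1%), where the share over all marked coding genes with a start site in the domain was 79.4%. The mitochondrial ribosomal protein genes reached 779 bp before and 1056.5 bp past the start, so that the lists differed mainly downstream. At 1000 bp past the start, a peak still covered 96.3% of the 81 genes, 71.2% of all marked coding genes and 66.7% of the mitochondrial list. At 1500 bp the shares were 54.3%, 41.3% and 14.1%, and at 2500 bp 6.17%, 16.8% and 3.85%. The cover thus fell below that of all coding genes at the far end.

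**Figure D3:**
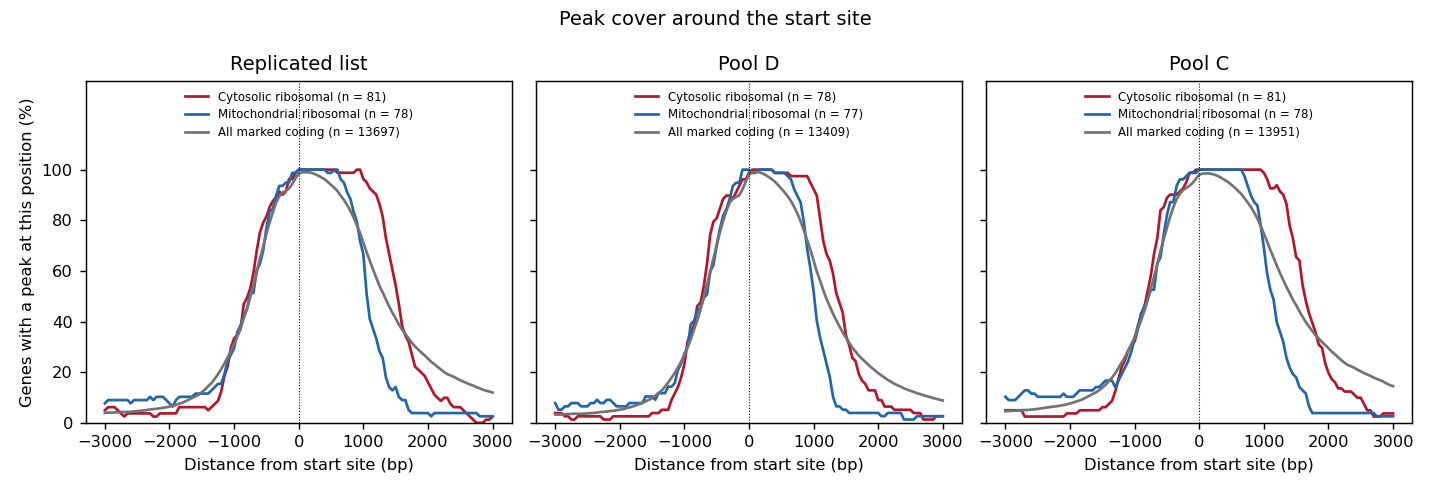
Share of genes (%) with a peak at each distance (bp) from the start site, in the replicated list and in each pool, for cytosolic ribosomal, mitochondrial ribosomal and all marked coding genes. In the replicated list the cytosolic curve stays at 96.3% at 1000 bp and drops to 16.0% at 2000 bp, while that of all coding genes goes from 71.2% to 25.4%.

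The genes are short, and the mark filled much of them. Median gene length was 3289 bp for the marked members and 25629 bp for all marked coding genes, and the median share of the gene inside the domain was 52.2% against 5.62%. Among genes under 3000 bp the order was the other way: 71.1% for the ribosomal protein genes and 74.8% for coding genes of that length. From 3000 to 6000 bp the shares were 43.2% and 30.2%. Ribosomal protein genes under 3000 bp were marked in 33 of 35 cases, against 32.0% of coding genes of that length, and those of 3000 to 6000 bp in 39 of 40, against 44.2%.

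Within the gene, the summit of the strongest peak lay past the start in 71 of 81 genes (87.7%, against 78.6% of all marked coding genes), at a median of 178 bp. It fell in the first intron of 48 genes, in the first exon of 19 and upstream of the start in 10. The domain ended in an intron of 60 genes, most often in the third (30 genes), and in an exon of 14. These exon and intron counts were not made over all marked coding genes, so they cannot be called particular to the list. In 7 genes the domain passed the 3' end, among them Rpl36, Rpl41, Rps2, Rps21 and Rps27. This is 8.64% of the list, against 2.33% of all marked coding genes with a start site in the domain. Among genes under 3000 bp the shares were 18.2% and 34.8%. The 3 shortest of these genes were Rpl36 at 828 bp, Rps21 at 1069 bp and Rps27 at 1130 bp, whose domains ended 576, 275 and 858 bp past the gene. Rpl41, at 1192 bp nearly as short, encodes the smallest ribosomal protein, and its domain went on for 1710 bp past the gene.

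A second coding gene started inside the domain of 19 of the 81 genes (23.5%), against 19.0% of all marked coding genes and 44.9% of the mitochondrial ribosomal protein genes. The count was 18 in pool D, 18 in pool C and 18 when peaks under a −log10 q of 5 were left out. The partners, as chosen by position alone, were of mixed function. Rps28 shared its domain with Ndufa7 and Rps2 with Ndufb10, both subunits of respiratory complex I. The Rps2 domain reached 4497 bp past the start in the replicated list, but 1484 bp in pool D. Rpl9 was beside Lias, a lipoic acid synthase, Rps18 beside Vps52 and Rps25 beside Trappc4, both of membrane traffic, and Rpl18 beside Sphk2, a sphingosine kinase. Rpl35 was joined with Arpc5l, a subunit of the actin-nucleating Arp2/3 complex, and Rps27 with Rab13. Rpl4, Rpl7, Rpl7a, Rpl12, Rpl15, Rpl35a, Rpl36al, Rpl41, Rps10, Rps14 and Rps27a made up the rest. Of these, Rps10 was counted through a readthrough gene annotated over it. Rps14 was counted through its broadest domain, of 2794 bp, while its other domain, of 2783 bp, held no other coding start. The 19 shared domains had a median of 2833 bp, in pool D 2546 bp and in pool C 3043 bp. The 62 domains with the gene alone had medians of 2270, 2043 and 2418 bp. Their median signal percentiles were 59.5 for the shared and 72.6 for the unshared domains. With gaps of up to 3 kb joined, 29 genes shared a domain.

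Rpl3 and Rps14, 2 of the 81 genes, had more than 1 marked promoter. Over all marked coding genes it was 998 of 14169, so this is not particular to the list. Rpl3, a protein of the peptidyl transferase centre, carried its broadest domain of 3380 bp 8462 bp inside the annotated 5' end of the gene. Its other domain, of 2720 bp, lay at that 5' end and holds the start of Syngr1, a synaptic vesicle gene. Rps14 had a domain of 2794 bp at the annotated 5' end, with the start of Ndst1, and another of 2783 bp 27498 bp further in, around 5 annotated starts of its own. Which starts were in use was not measured.

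Breadths in the pools went together across genes, at a larger scale in pool C. Pool C gave the wider domain at 78 of 81 genes (96.3%), and over all coding genes marked in both pools at 96.8%. The median ratio of pool C to pool D was 1.16, against 1.17 over all, a shift of like size. Rpl3 and Rpl13 were among the 3 exceptions, narrower in pool C with 3315 and 2583 bp against 3405 and 2600 bp. The ratio exceeded 1.5 at 5 genes (6.17%), against 12.7% of all coding genes: Rps2 at 2.25, Rpl6 at 1.91, Rpl27 at 1.67, and Rpl5 and Rps3a1 at 1.60. Rpl6 went from 1188 bp in pool D to 2264 bp in pool C. Pearson's r of log2 breadth between pools was 0.87 across the 81 genes and 0.92 across 13907 coding genes, both across genes, which share the same 2 lists. In pool D the start sites of Rps29, Rps3a1 and Rps4x lay 36, 27 and 23 bp outside the peak, while in pool C all 3 were inside.

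**Figure D4:**
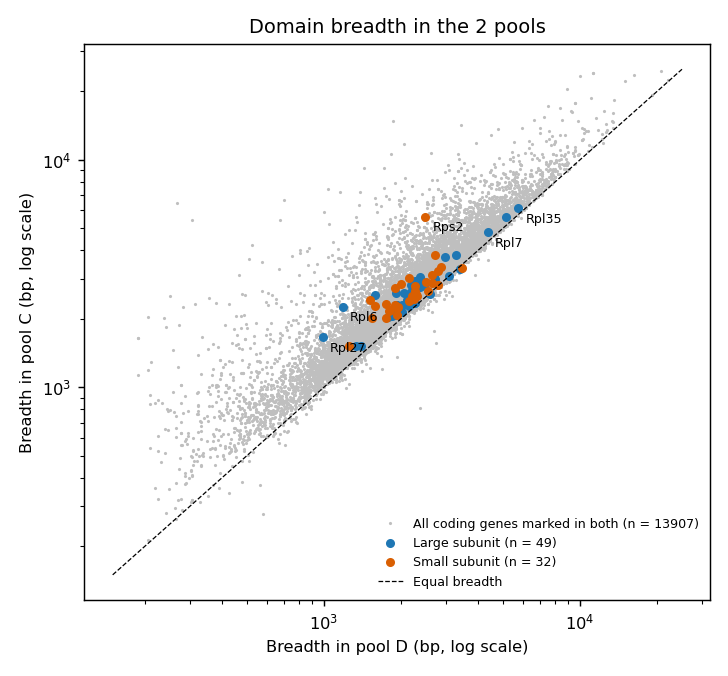
Breadth of the promoter domain in pool D (x, bp, log axis) against pool C (y, bp, log axis), with 1 point per gene and a dashed line at equal breadth. The members lie above the line at 78 of 81 genes, and Rps2 (2491 bp against 5616 bp) stands furthest from it.

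Small nucleolar RNAs, which guide modification of ribosomal RNA, are often cut from introns of ribosomal protein genes. Of the 85 genes, 30 (35.3%) hosted a small nucleolar or Cajal body RNA, against 1.26% of all coding genes. They held 58 such RNAs, of which 28 (48.3%) lay inside the domain. Over all marked coding hosts, 54 of 369 (14.6%) did, totals that include the RNAs of the list. Marked genes of the list are also short, with a median of 3289 bp against 25629 bp over all marked coding genes. The share at hosts of like length was not measured. At 11 genes every hosted RNA was inside, among them Rpl7a and Rpl17 with 3 each. Rpl4 hosted 5 with 2 inside, Rpl13a 4 with 1 inside and Rpl5, which with Rpl11 carries the smallest ribosomal RNA, 3 with 0 inside. The peaks say nothing of how much of these RNAs was made.

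Pyrimidine runs at the start were found more often in the list than over all coding genes; no test was made of this. RefSeq windows of 300 bases, 250 before to 50 after the start, were at hand for 65 of the 85 genes and for 16530 coding genes. A run of 8 or more C or T within 20 bases of the start was found in 49.2% of the 65, against 20.1% of all coding genes and 23.2% of the mitochondrial ribosomal protein genes. A C at the start followed by 4 pyrimidines, the TOP form, was found in 20.0%, against 2.20%, and in 0 of 69 mitochondrial windows. Rps6, Rpl28, Rpl38, Rps18 and Rps27 were among the genes with this form. So was the unmarked Rps27rt. With the starts of the annotation in place of RefSeq, the shares with a long run were 41.2% and 19.7%. RefSeq and annotation starts lay within 10 bp of each other at 16 of the 65 genes, so the exact first base is uncertain for most.

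Among short factor motifs, searched on both strands, the ETS core CCGGAA was in 53.8% of the 65 windows, in 20.0% of all coding and in 27.4% of marked coding windows. In the mitochondrial list it was 56.5%, near the cytosolic share in these RefSeq windows. The YY1 core AAGATGG was present in 13.8%, against 6.44% of all and 6.86% of marked coding windows. The NRF1 motif GCGCATG was in 12.3%, against 5.05% of all and 7.01% of marked windows. Neither was particular to the list, since the mitochondrial windows had 18.8% for YY1 and 11.6% for NRF1. From the starts of the annotation the NRF1 share of the cytosolic list was 7.06%, against 4.90% of all and 6.35% of marked genes. The mitochondrial share was then 10.3%. GGGCGG, bound by SP and KLF factors, was in 60.0%, against 49.1% of all and 67.4% of marked windows. CCAAT, at 30.8%, TATAAA, at 9.23%, and the E-box CACGTG, at 9.23%, stood beside 38.4%, 12.6% and 8.15% of all coding windows and 37.6%, 6.31% and 10.2% of marked ones. For TATAAA and CACGTG the list thus lay between the shares of all and of marked RefSeq windows. This did not hold with the starts of the annotation. TATAAA was then at 11.8%, against 11.6% of all and 5.79% of marked genes. CACGTG was at 12.9% from those starts, above 7.64% of all and 9.65% of marked genes. The ETS core was at 43.5% from them, below 55.1% in the mitochondrial list. RefSeq windows held a median of 21 CpG, as did those of marked coding genes, against 15 over all. A match describes the letters, and binding was not measured.

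**Figure D5:**
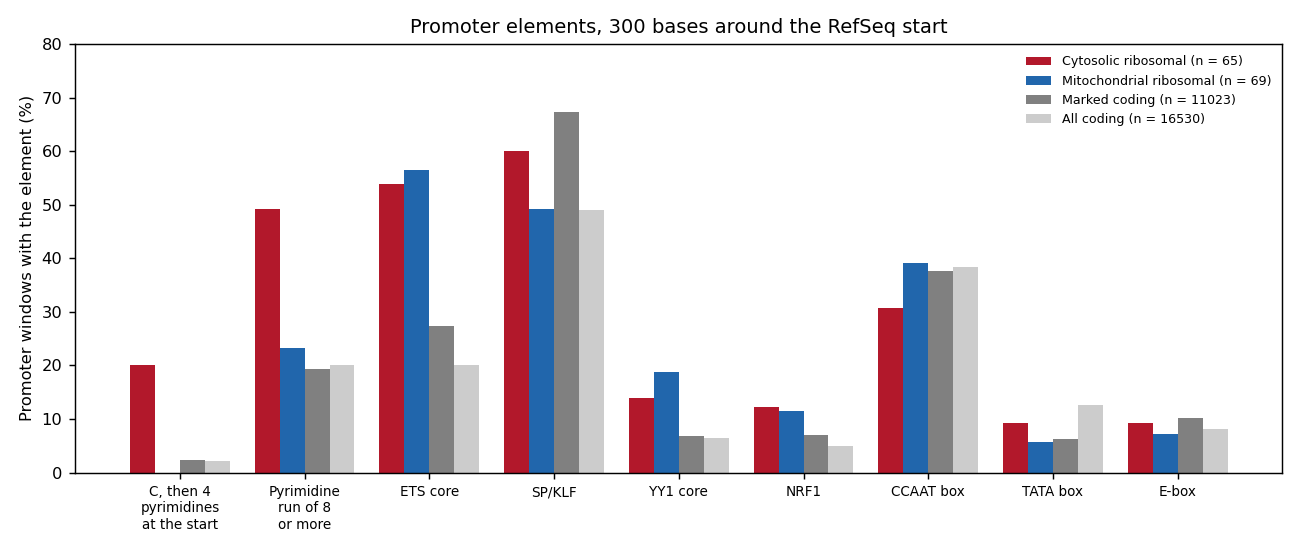
Share of 300-base promoter windows (%) with each element, for 65 cytosolic and 69 mitochondrial ribosomal protein genes and for marked and all coding genes. The pyrimidine elements stand at 49.2% and 20.0% in the cytosolic list, above the other bars, while the ETS core is at 53.8% and 56.5% in both ribosomal lists.

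For the series as a whole, the lists held 24690 peaks in pool D, 34193 in pool C, 31301 on both pools together and 27063 in the replicated list. Of the replicated peaks 98.3% had the interval of a peak called on both pools together, so the replicated breadths are not a mean over pools. Depth is unknown, because the lists give no read counts. The −log10 q of the strongest peak of the members ranged from 52.6 to 212. Markers of neurons (6 of 6 genes) and astrocytes (4 of 4) carried promoter peaks, and those of liver and skeletal muscle (0 of 3 each) did not. Oligodendrocyte markers (4 of 4) and endothelial markers (3 of 3) were also marked, with 3 of 4 oligodendrocyte markers in the pool D list. Of the microglial markers 1 of 4 was marked, 0 of 4 in pool D and 4 of 4 in pool C.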

How the data were processed

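H3K4me3 was profiled in 4 libraries of 2 pools. Per the labels, peaks are on the mm10 build; the aligner, peak caller, versions and thresholds were not stated (not given in the sources used here). The deposited peak lists give, as the authors' own values, a signal per peak, −log10 p and −log10 q, and the summit offset. Technical replicates share 1 list per pool and could not be separated.

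Peaks were assigned with Python 3.11.15 and pysam 0.24.0 to start sites of GENCODE M21 coding transcripts (window 1 kb, overlap 1 bp) and joined across gaps of up to 1 kb. Reach was measured from the own start site in the domain nearest the summit. Assignment was tested on simulated peaks. RefSeq windows (GRCm38.p6) matched the genome in all 65 members found. Genes were named by rule: unmarked members, paralogs and parents, the 5 broadest and 5 narrowest, the 3 largest pool ratios, stalk genes and Rpsa, members with several domains, members sharing a domain, and the 3 shortest whose domain passes the 3' end; genes named beyond it, such as the highest and lowest in signal, were chosen after their values were seen. Values of some single genes are not reported here. Members and lists were chosen with earlier results of these data known. Alternatives covered lists, q, window, gap and start sites. No sample-level test exists, since each pool gave 1 list; pool values are given as mean ± SD (n = 2).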

Additional observations from a re-analysis of the deposited data

How the results depend on the processing

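The median breadth and the median reach past the start moved by less than the pool spread in every alternative run. The count of 81 marked genes moved by less than 1.5 times, and was 80 with the 5' end of the gene alone. The spread was the SD of the pool D and pool C values, so a small shift in those 2 lists says little. The list called on both pools held 98.3% of the replicated peaks and could hardly move. A count of 81 of 85 could not rise by 1.5 times. The median signal percentile was 65.6 in pool D and 65.6 with a 2.5 kb window. The median reach before the start was 740.5 bp in pool D, 690 bp from the 5' end of the gene alone, 904 bp from the starts of all transcript types and 779 bp without joining. With gaps of 3 kb joined, 29 genes shared a domain with another coding start. Ribosomal protein pseudogenes with a peak numbered 2 within 500 bp and 17 within 2.5 kb; larger windows reach more peaks by construction. Of 250 alternative breadths for 25 named genes, those of the 2 pool lists included, 223 moved by less than the spread of the 2 pools and 11 by over 1.5 times. Outside the genes given above, these were Rpl7a, at 8962 bp with gaps of 3 kb joined. No paired analysis was possible because each pool gave 1 list and no result comes from a test. Technical replicates could not be left out singly. Caller settings were not stated and the lists give no depth; any part of depth in the wider domains and longer list of pool C was not tested.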

Other observations

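Processed pseudogenes, copies of messages put back into the genome, are common for ribosomal protein genes, and nearly all were unmarked. Annotated pseudogenes whose symbol starts with Rpl or Rps and holds -ps numbered 294, and copies under other symbols were not counted. Of the 294, 4 (1.36%) had a peak within 1 kb of their 5' end, the same 4 in the replicated list and both pools. Over all 10236 processed pseudogenes it was 2.22%, in pool D 1.88% and in pool C 2.66%. Rpl29-ps2 is a transcribed pseudogene whose peak lies at the start of Akr1e1. Rpl30-ps3 lies in Fnbp4, under a peak of 2515 bp. Rpl30-ps6 had a weak peak of 739 bp with a −log10 q of 3.35, 2.98 in the pool D list and 13.1 in the pool C list. Rps2-ps13 had one of 465 bp with a −log10 q of 15.5, and of 21.3 in the pool C list. Away from any coding start, 3 of 290 had a peak.

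A further 6 genes that the annotation calls protein-coding despite a pseudogene symbol, Rpl9-ps1, Rpl9-ps6, Rpl10-ps3, Rpl36-ps4, Rpl36a-ps1 and Rps12-ps3, had no peak in any list. As at Rps27rt, the lack of a peak at near-identical copies is uncertain.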
